A study of Homo sapiens with 8 samples.

Results

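PRMT5 and the proteins that surround it are encoded by 5 genes described here, together with MTAP, the gene whose enzyme removes a natural inhibitor of PRMT5. The 6 genes, PRMT5, WDR77, CLNS1A, RIOK1, COPRS and MTAP, were taken by symbol through GENCODE release 29 from the 58721 gene identifiers counted in each library. All 6 were found, and all 6 were among the 19395 genes with enough counts to test. They were measured in 4 groups of 2 libraries each, made from cultures of the human neuroblastoma cell lines NGP and CHLA-20. The groups were NGP with the PRMT5 inhibitor, NGP with the vehicle DMSO, CHLA-20 with the inhibitor and CHLA-20 with DMSO, all after 6 days. The samples name the inhibitor JSK591, while the treatment description names GSK591 and gives the dose as the IC50 without a concentration. The sample name is kept here, and the labels do not say whether both stand for a single compound. NGP was grown in RPMI1640 with serum, and CHLA-20 in IMEM with serum, insulin, transferrin and selenite, so line and medium cannot be told apart. RNA came from live cells and was enriched for messenger RNA before sequencing on a DNBseq instrument.

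PRMT5 transfers methyl groups from S-adenosylmethionine to arginines and leaves symmetric dimethylarginine on histones, Sm proteins and many RNA-binding proteins. It works in a complex with WDR77, also called MEP50, and is pointed to its substrates by adaptor proteins that share a short PRMT5-binding motif. CLNS1A, also called pICln, brings Sm proteins for the assembly of spliceosomal particles, RIOK1 brings other RNA-binding proteins such as nucleolin, and COPRS directs the complex to histone H4. MTAP cleaves methylthioadenosine, a by-product of polyamine synthesis that occupies the S-adenosylmethionine pocket of PRMT5, and it lies beside the tumour suppressor CDKN2A on chromosome 9, where many tumours lose both genes. JSK591 acts on the enzyme, so messenger RNA levels do not tell whether PRMT5 was inhibited.

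The libraries held 33188542 to 34914902 counts assigned to genes, of which mitochondrially encoded genes took 19.0% to 21.4%. Replicates differed by more than counting noise in every group, where chi-square divided by its degrees of freedom ran from 2.05 to 3.11. The labels do not say that replicates were separate cultures, and p-values therefore measure the spread between these libraries, which may be technical. Of 8 neuroblastoma markers, 7 had at least 46.0 CPM in every CHLA-20 library, while in NGP TH and DBH stayed under 1 CPM, and CHGA had at most 1 count in any library. The 8 summed to 2055 and 2053 CPM in NGP with JSK591, against 2024 and 2173 CPM in NGP with DMSO, and to 2996 and 2911 CPM in CHLA-20 with JSK591, against 3747 and 3876 CPM in CHLA-20 with DMSO. The 4 blood markers summed to at most 0.356 CPM and the 4 epithelial markers to at most 3.97 CPM. The 5 fibroblast markers summed to 652 and 690 CPM in NGP with JSK591, against 577 and 596 CPM in NGP with DMSO, and to 414 and 420 CPM in CHLA-20 with JSK591, against 485 and 486 CPM in CHLA-20 with DMSO. The most abundant fibroblast markers were COL1A1 in NGP and DCN and LUM in CHLA-20, and the part of these marker differences in the results was not tested. In bulk samples, fewer cells of a type and less RNA per cell cannot be told apart.

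In NGP, JSK591 left 2 of the 6 genes higher (COPRS and MTAP), 2 lower (RIOK1 and CLNS1A) and 2 not called (PRMT5 and WDR77). In CHLA-20, 3 were higher (WDR77, COPRS and MTAP), 1 was lower (CLNS1A) and 2 were not called (PRMT5 and RIOK1). Calls were made at an adjusted p under 0.05, from the quasi-likelihood test of edgeR, adjusted by Benjamini-Hochberg over all genes tested. Over all genes tested, 36.2% were called in NGP (16.8% higher and 19.4% lower) and 39.4% in CHLA-20 (16.9% higher and 22.4% lower). A call was therefore common among expressed genes. The 6 had a smaller median absolute change than all genes tested, which were not matched to them for count level. RIOK1 in NGP lay above the median of all genes, and 30.7% of genes tested had a larger absolute change. The median absolute log2 change of the 6 was 0.16 in NGP and 0.15 in CHLA-20, against 0.22 and 0.23 over all genes tested. Their median signed log2 change was 0.05 in NGP and 0.14 in CHLA-20, against 0.00 and -0.02 over all genes. The calls of WDR77, CLNS1A and COPRS in CHLA-20 depended on single libraries, and so did those of COPRS and MTAP in NGP, as given beside each gene. Most of the rises also depended on the test. With DESeq2 in place of edgeR, 1 of the 6 was called higher in CHLA-20 (MTAP) and 0 in NGP.

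**Figure D1:**
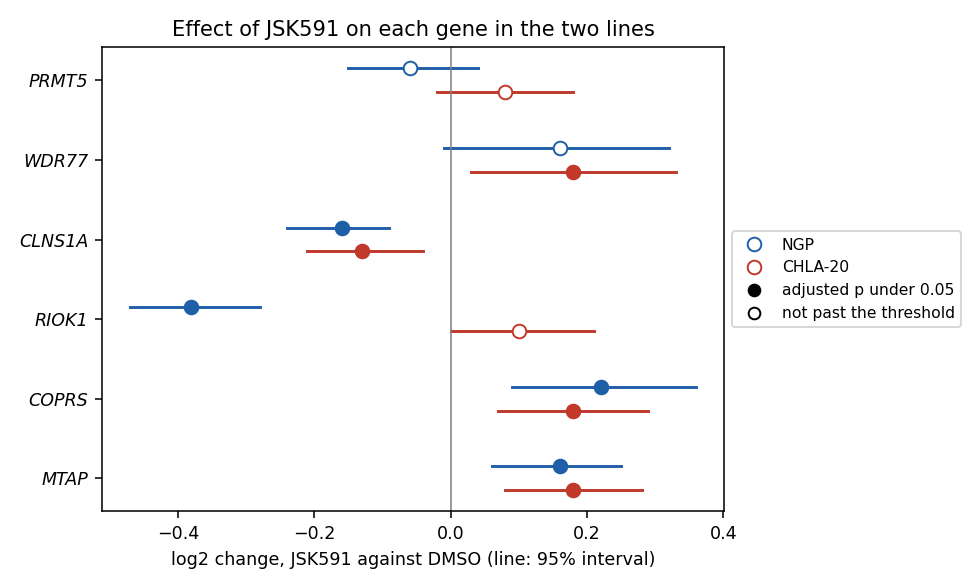
Log2 change with JSK591 against DMSO for each of the 6 genes in NGP (blue) and CHLA-20 (red), from 2 libraries a group. Lines are 95% intervals and filled points are past the threshold; RIOK1 in NGP, at -0.38, lies farthest from 0, and CLNS1A is below 0 and COPRS and MTAP above 0 in both lines.

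PRMT5 itself, the catalytic subunit, lies at chr14:22920511-22929585 on the minus strand of GRCh38 and was not called with the inhibitor in either line. Its normalised counts were 59.0 and 60.5 CPM in NGP with JSK591, against 61.9 and 62.5 CPM in NGP with DMSO. In CHLA-20 they were 48.0 and 48.4 CPM with JSK591, against 45.6 and 45.8 CPM with DMSO. The groups did not overlap in either line, with the JSK591 libraries below DMSO in NGP and above it in CHLA-20. The log2 change was -0.06 ± 0.05 (SE) in NGP, with a 95% interval of -0.15 to 0.04 and an adjusted p of 0.381. In CHLA-20 it was 0.08 ± 0.05, with an interval of -0.02 to 0.18 and an adjusted p of 0.233. The NGP effect minus the CHLA-20 effect was -0.13 ± 0.07 with an adjusted p of 0.153. After a trend with GC content was removed from each library, this value was -0.19 with an adjusted p of 0.0218, past the threshold. The level of PRMT5 differed between the lines. With DMSO it was 1.36-fold higher in NGP (log2 0.44 ± 0.05, adjusted p = 3.01e-12), and with JSK591 it was 1.24-fold higher in NGP (log2 0.31 ± 0.05, adjusted p = 7.97e-08). In descending order the group means were 62.2 ± 0.45 CPM in NGP with DMSO, 59.8 ± 1.0 in NGP with JSK591, 48.2 ± 0.29 in CHLA-20 with JSK591 and 45.7 ± 0.17 in CHLA-20 with DMSO (SD, n = 2 each). PRMT5 shares 27.1% of its exonic bases with another gene, its antisense gene PRMT5-AS1, which had 5 to 15 counts in a library.

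The stretch before the RefSeq start of PRMT5 (GRCh38.p14, chr14:22929377-22929626, minus strand) is shown because it stands apart from the other 5 genes in its CCAAT boxes, the binding letters of the factor NF-Y. The letters searched were CCAAT on either strand, which read ATTGG where the box lies on the other strand, as all copies here do. Capitals mark the 3 copies, of which the first begins 183 bases and the last 35 bases before the start. All 3 copies lie inside the GENCODE gene used for the counts, which reaches to position 22929585, upstream of the RefSeq start.

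PRMT5 promoter: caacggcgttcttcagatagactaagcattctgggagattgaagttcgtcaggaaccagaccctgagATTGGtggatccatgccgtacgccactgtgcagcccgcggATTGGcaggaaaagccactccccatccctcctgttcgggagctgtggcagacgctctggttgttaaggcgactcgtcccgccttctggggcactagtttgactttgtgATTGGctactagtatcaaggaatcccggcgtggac

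In windows from 250 bases before to 50 bases after the start, CCAAT was found in 34.61% of 35116 promoters and 3 or more copies in 3.26%. PRMT5 held 3 copies, MTAP 1, and the other 4 genes none. RefSeq windows were matched for all 6 genes. A match is a description of these letters and says nothing of whether a factor binds there.

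WDR77, the obligate partner that forms the core of the complex with PRMT5 and helps to hold substrates, lies at chr1:111439890-111449376 on the minus strand. It had 14.5 and 13.9 CPM in NGP with JSK591, against 12.3 and 13.2 CPM in NGP with DMSO. CHLA-20 libraries had 19.6 and 18.7 CPM with JSK591, against 17.2 and 16.6 CPM with DMSO. Every JSK591 library was above every DMSO library of its line. WDR77 was called higher in CHLA-20, with a log2 change of 0.18 ± 0.07, a 95% interval of 0.03 to 0.33 and an adjusted p of 0.0470. The NGP value was 0.16 ± 0.08, with an interval of -0.01 to 0.32 and an adjusted p of 0.132. The effects in the lines differed by -0.02 ± 0.11 (adjusted p = 0.913), so a difference was not detected, and its interval ran from -0.24 to 0.20. The call in CHLA-20 had the largest adjusted p of the 6 genes' calls. It was lost without CHLA-20 DMSO replicate 1 (0.21, adjusted p = 0.0848), CHLA-20 DMSO replicate 2 (0.18, adjusted p = 0.139), CHLA-20 JSK591 replicate 1 (0.15, adjusted p = 0.238) and CHLA-20 JSK591 replicate 2 (0.21, adjusted p = 0.0709). A block on replicate number gave an adjusted p of 0.0501 over all libraries and 0.0533 within each line.

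Unlike PRMT5, WDR77 was lower in NGP. The log2 difference between NGP and CHLA-20 was -0.41 ± 0.08 with DMSO (adjusted p = 6.47e-06) and -0.43 ± 0.08 with JSK591 (adjusted p = 9.46e-07). Group means ran from 19.2 ± 0.59 CPM in CHLA-20 with JSK591 through 16.9 ± 0.40 in CHLA-20 with DMSO and 14.2 ± 0.37 in NGP with JSK591 to 12.7 ± 0.58 in NGP with DMSO (SD, n = 2 each). WDR77 shares 36.5% of its exonic bases with other genes, the highest share of the 6. Its neighbour on the opposite strand is ATP5PB, a subunit of the mitochondrial ATP synthase, which had 3542 to 4056 counts in a library and shares 350 bases with WDR77. The sources used here do not say whether counting used strand, so reads in these shared bases cannot be assigned with certainty. A further 673 bases are shared with AL390195.1, a transcript on the same strand with 5 to 15 counts in a library, where strand would not separate the reads. ATP5PB was not called with JSK591, with log2 changes of -0.07 ± 0.04 in NGP (adjusted p = 0.201) and 0.08 ± 0.04 in CHLA-20 (adjusted p = 0.144).

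WDR77 was the only one of the 6 whose window held CACGTG, the E-box letters bound by MYC family factors, which read the same on both strands. The window is shown because neuroblastoma is known for high MYC family activity. It lies at chr1:111449229-111449258 (GRCh38.p14, minus strand), and capitals mark the E-box. The E-box lies after the RefSeq start of WDR77, within the 50 bases of the search window on that side.

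WDR77 E-box: tcagaggtgcacCACGTGgggtttgctgcc

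CACGTG was found in 7.26% of all promoters of the same length.

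**Figure D2:**
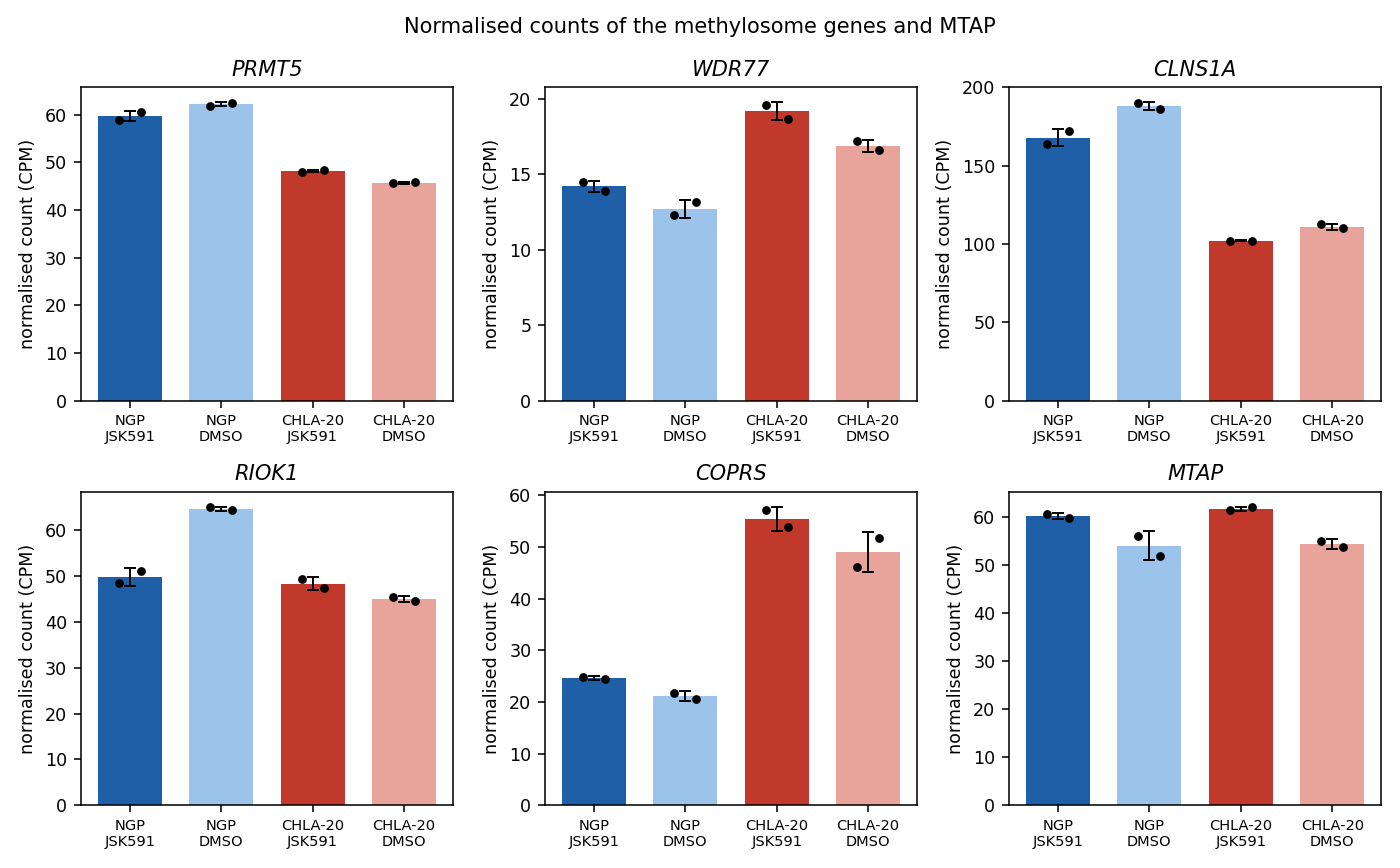
Normalised counts (CPM, TMM-scaled) of the 6 genes by group, with bars for the mean, error bars for the SD and points for the 2 libraries of each group. NGP libraries lie above CHLA-20 for PRMT5 and CLNS1A and below it for WDR77 and COPRS, and RIOK1 in NGP with DMSO stands above the other groups.

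CLNS1A, the adaptor that carries Sm proteins to the methylosome, was the gene of the 6 that fell in both lines. It lies at chr11:77514936-77637805 on the minus strand and shares no exonic bases with other genes. It had 164 and 172 CPM in NGP with JSK591, against 190 and 186 CPM in NGP with DMSO. In CHLA-20 it had 102 CPM in both JSK591 libraries, against 113 and 110 CPM in the DMSO libraries. The JSK591 libraries were below the DMSO libraries in each line. Its log2 change was -0.16 ± 0.04 in NGP (adjusted p = 0.000489) and -0.13 ± 0.04 in CHLA-20 (adjusted p = 0.0117). The effects differed by -0.04 ± 0.06 (95% interval -0.15 to 0.07, adjusted p = 0.676). With GC removed, the sign of that difference turned (0.05). The call in NGP held in each of the 8 fits that left out a library, at -0.19 to -0.15. The call in CHLA-20 was kept only without NGP JSK591 replicate 2 and was lost in the other 7 of those fits. It was -0.11 without CHLA-20 DMSO replicate 1 (adjusted p = 0.115), -0.12 without CHLA-20 DMSO replicate 2 (0.0744), -0.12 without CHLA-20 JSK591 replicate 1 (0.0792) and -0.13 without CHLA-20 JSK591 replicate 2 (0.0663). It was -0.10 without NGP DMSO replicate 1, NGP DMSO replicate 2 or NGP JSK591 replicate 1, with adjusted p of 0.0517, 0.0509 and 0.0587. CLNS1A was 1.69-fold higher in NGP than in CHLA-20 with DMSO (log2 0.76 ± 0.04, adjusted p = 6.58e-26) and 1.64-fold higher with JSK591 (log2 0.72 ± 0.04, adjusted p = 1.45e-24).

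RIOK1, an atypical kinase of ribosome maturation that competes with CLNS1A for the same site on PRMT5, showed the largest change of the 6, in NGP, and an effect that differed between the lines. The gene lies at chr6:7389496-7418037 on the plus strand and shares 7.7% of its exonic bases. It had 48.5 and 51.2 CPM in NGP with JSK591, against 65.0 and 64.4 CPM in NGP with DMSO. The CHLA-20 values were 49.3 and 47.3 CPM with JSK591, against 45.4 and 44.5 CPM with DMSO. The NGP DMSO libraries were high and the other 6 libraries lay between 44.5 and 51.2 CPM. RIOK1 fell in NGP by 0.38 ± 0.05 on the log2 scale, to 0.770 of the DMSO level (adjusted p = 4.75e-09), and the call held in all 8 fits without a library, at -0.41 to -0.36. In CHLA-20 the log2 change was 0.10 ± 0.05 (95% interval 0.00 to 0.21, adjusted p = 0.107). It passed the threshold at 0.13 without NGP DMSO replicate 1 (adjusted p = 0.0362), NGP DMSO replicate 2 (0.0367) or NGP JSK591 replicate 1 (0.0372), and at 0.13 in a fit of the CHLA-20 libraries alone (0.0394). The difference of the effects was -0.48 ± 0.07 (95% interval -0.62 to -0.34, adjusted p = 2.22e-07), and it was called in every fit without a library, at -0.53 to -0.45. RIOK1 was the only one of the 6 called in this comparison, where 27.7% of all genes tested were called and 12.5% were called lower, and with GC removed PRMT5 was called beside it. Over all genes tested 2950 differences were higher and 2418 lower, and with a GC trend removed 2419 were higher and 2971 lower. Between the lines, RIOK1 was 1.44-fold higher in NGP with DMSO (log2 0.52 ± 0.05, adjusted p = 1.23e-14). With JSK591 the lines overlapped and no difference was detected (log2 0.05 ± 0.05, 95% interval -0.06 to 0.15, adjusted p = 0.422).

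COPRS, which recruits PRMT5 to histone H4, lies at chr17:31851864-31859337 on the minus strand and shares no exonic bases. It had 24.9 and 24.4 CPM in NGP with JSK591, against 21.8 and 20.5 CPM in NGP with DMSO. For CHLA-20 the values were 57.1 and 53.9 CPM with JSK591, against 46.2 and 51.7 CPM with DMSO. JSK591 libraries were above DMSO libraries in each line, with the widest replicate spread in CHLA-20 with DMSO. The log2 change was 0.22 ± 0.07 in NGP (adjusted p = 0.00558) and 0.18 ± 0.05 in CHLA-20 (adjusted p = 0.00493), both called higher. The call in NGP was lost without NGP DMSO replicate 2 (0.16, adjusted p = 0.131) or NGP JSK591 replicate 1 (0.19, adjusted p = 0.0818). The call in CHLA-20 was lost without CHLA-20 DMSO replicate 1 (0.10, adjusted p = 0.235) or CHLA-20 JSK591 replicate 1 (0.14, adjusted p = 0.122), and without CHLA-20 DMSO replicate 2 the value was 0.29. No difference between the effects was detected (0.04 ± 0.09, 95% interval -0.13 to 0.21, adjusted p = 0.771). Its sign turned without CHLA-20 DMSO replicate 2 (-0.09), CHLA-20 JSK591 replicate 2 (-0.00), NGP DMSO replicate 2 (-0.04) or NGP JSK591 replicate 1 (-0.02). COPRS differed most between the lines. It was lower in NGP by a log2 difference of -1.21 ± 0.06 with DMSO (adjusted p = 6.87e-27), at 0.432 of the CHLA-20 level, and of -1.17 ± 0.06 with JSK591 (adjusted p = 5.44e-27).

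MTAP, the phosphorylase of the methionine salvage pathway, was expressed in all 8 libraries with 1728 to 2123 counts each. The gene lies at chr9:21802543-21937651 on the plus strand and shares 9.6% of its exonic bases. It had 60.5 and 59.7 CPM in NGP with JSK591, against 56.0 and 51.8 CPM in NGP with DMSO. CHLA-20 gave 61.3 and 61.9 CPM with JSK591, against 54.9 and 53.6 CPM with DMSO. All 4 JSK591 libraries were above all 4 DMSO libraries, across both lines. MTAP rose by 0.16 ± 0.05 on the log2 scale in NGP (95% interval 0.06 to 0.25, adjusted p = 0.0088) and by 0.18 ± 0.05 in CHLA-20 (95% interval 0.08 to 0.28, adjusted p = 0.00183). The call in CHLA-20 held in all 8 fits without a library, at 0.18 to 0.21. The call in NGP was lost without NGP DMSO replicate 2 (0.09, adjusted p = 0.292) or NGP JSK591 replicate 1 (0.12, adjusted p = 0.125). The effects differed by -0.03 ± 0.07 (95% interval -0.16 to 0.11, adjusted p = 0.838), and with GC removed by 0.06. MTAP was the gene of the 6 with no detected difference between NGP and CHLA-20 in either condition. The log2 difference was -0.01 ± 0.05 with DMSO (95% interval -0.11 to 0.09, adjusted p = 0.864), where the lines overlapped, and -0.04 ± 0.05 with JSK591 (95% interval -0.13 to 0.06, adjusted p = 0.506). The sign of the first turned under other scalings and without CHLA-20 DMSO replicate 1, NGP DMSO replicate 2 (0.08), NGP JSK591 replicate 1 (0.03) or NGP JSK591 replicate 2.

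Some genes near MTAP on chromosome 9 differed between the lines, where 75.5% of all genes tested were called with DMSO and 75.3% with JSK591. GENCODE lists 34 other genes within 500 kb of MTAP, of which 9 had at least 10 counts in a library and 12 had none in any. CDKN2A, whose products p16 and p14ARF restrain CDK4 and MDM2, has its lowest base 165.2 kb above that of MTAP. It had 132 and 141 CPM in NGP with JSK591, against 144 and 151 CPM in NGP with DMSO. In CHLA-20 it had 5.71 and 5.83 CPM with JSK591, against 7.16 and 8.41 CPM with DMSO. Every NGP library was far above every CHLA-20 library, and NGP was 18.9-fold higher with DMSO (log2 4.24 ± 0.06, adjusted p = 1.98e-55). CDKN2A fell with JSK591 in CHLA-20 by 0.43 ± 0.10 on the log2 scale (adjusted p = 0.000462), which was not called without CHLA-20 DMSO replicate 2 (-0.29, adjusted p = 0.0769). In NGP the log2 change was -0.11 ± 0.04 (adjusted p = 0.0418). That call was lost with total count scaling (-0.08, adjusted p = 0.143), DESeq2 (-0.12, adjusted p = 0.103), no filter on low counts (-0.11, adjusted p = 0.168) or at least 10 counts in every library (-0.09, adjusted p = 0.0714). It was also lost without CHLA-20 JSK591 replicate 1 (-0.11, adjusted p = 0.053), CHLA-20 JSK591 replicate 2 (-0.11, adjusted p = 0.0567), NGP DMSO replicate 2 (-0.09, adjusted p = 0.232) or NGP JSK591 replicate 1 (-0.08, adjusted p = 0.273).

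CDKN2B, the neighbouring inhibitor p15, had 86 and 83 counts in NGP with JSK591 and 62 in both NGP DMSO libraries. In CHLA-20 it had 1 and 2 counts with JSK591 and 2 and 3 with DMSO. The antisense RNA CDKN2B-AS1 had 24 to 37 counts in NGP and 1 to 6 in CHLA-20. The divergent transcript CDKN2A-DT had 7 to 17 counts in NGP and 0 in the 4 CHLA-20 libraries. A count of 0 there allows up to 3 counts, or at most 0.0892 CPM, in a CHLA-20 library. On the other side of MTAP, KLHL9, an adaptor of a CUL3 ubiquitin ligase, was expressed in all groups. It had 61.5 and 60.6 CPM in NGP with JSK591, against 65.8 and 66.1 CPM with DMSO, and 47.0 and 48.3 CPM in CHLA-20 with JSK591, against 47.6 and 48.2 CPM with DMSO. KLHL9 was higher in NGP with DMSO (log2 0.46 ± 0.05, adjusted p = 5.28e-13) and was not called with JSK591 in either line. The pseudogene KHSRPP1 went the other way, with 108 and 103 counts in NGP with DMSO against 164 and 154 in CHLA-20 with DMSO. It was lower in NGP with DMSO (log2 -0.58 ± 0.15, adjusted p = 0.000386), a call lost with GC removed (-0.30, 0.056). With JSK591 it was -0.31 ± 0.14 (adjusted p = 0.0473), which several alternatives lost. AL359922.2 was higher in NGP with DMSO (1.01 ± 0.27, adjusted p = 0.000572), and UBA52P6 was not called in either condition. These are transcript counts and do not give DNA copy number.

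**Figure D3:**
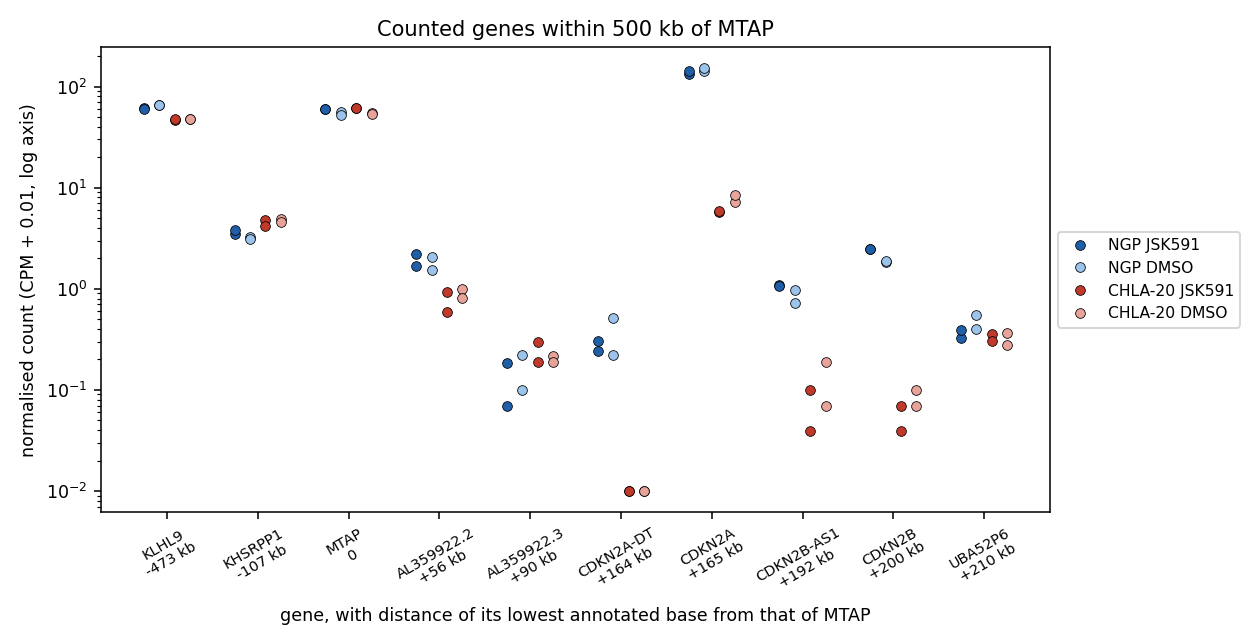
Normalised counts (CPM + 0.01, log axis) of MTAP and the 9 other genes within 500 kb that had at least 10 counts in a library, ordered by the distance of their lowest annotated base from that of MTAP. Each point is a library; MTAP lies at 51.8 to 61.9 CPM in all 4 groups, while CDKN2A, CDKN2B and their antisense genes lie higher in NGP than in CHLA-20.

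Levels of different genes were compared per length, as TPM computed from the counts and the union of each gene's exons. In NGP with JSK591 the means were 89.8 TPM for CLNS1A, 42.3 for PRMT5, 42.3 for COPRS, 37.8 for RIOK1, 12.4 for WDR77 and 10.1 for MTAP. In NGP with DMSO they were 103 TPM for CLNS1A, 50.1 for RIOK1, 44.9 for PRMT5, 37.0 for COPRS, 11.4 for WDR77 and 9.24 for MTAP. In CHLA-20 COPRS led, with 89.8 TPM with JSK591 and 80.9 TPM with DMSO. The other CHLA-20 means with JSK591 were 51.5 TPM for CLNS1A, 34.6 for RIOK1, 32.2 for PRMT5, 15.8 for WDR77 and 9.76 for MTAP. With DMSO they were 57.3 TPM for CLNS1A, 32.8 for RIOK1, 31.2 for PRMT5, 14.2 for WDR77 and 8.77 for MTAP. WDR77 transcripts were thus fewer than PRMT5 transcripts in every group on this scale, at 0.294 ± 0.013 of PRMT5 in NGP with JSK591, 0.253 ± 0.010 in NGP with DMSO, 0.491 ± 0.018 in CHLA-20 with JSK591 and 0.457 ± 0.013 in CHLA-20 with DMSO (SD, n = 2 each). The length used mattered for MTAP, whose union of exons is 14617 bases and longest transcript 7557 bases. By longest transcript MTAP had 16.6 TPM in NGP with JSK591, 15.1 in NGP with DMSO, 16.1 in CHLA-20 with JSK591 and 14.4 in CHLA-20 with DMSO, above WDR77 in every group. PRMT5 was also above RIOK1 in every group by that length. The union lengths include bases shared with other genes, 36.5% for WDR77, 27.1% for PRMT5, 9.6% for MTAP, 7.7% for RIOK1 and 0.0% for CLNS1A and COPRS. Reads classed as ambiguous stayed out of the counts, so TPM may be too low where this share is large. How far this moved the order of close genes, such as PRMT5 and RIOK1, was not tested.

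Within the 3 adaptors, the shares of COPRS and CLNS1A differed between the lines more than between treatments. COPRS gave 25.0% ± 0.92 of their summed TPM in NGP with JSK591 and 19.5% ± 0.57 in NGP with DMSO, against 51.0% ± 0.78 in CHLA-20 with JSK591 and 47.2% ± 2.3 in CHLA-20 with DMSO. CLNS1A gave 52.8% ± 0.64 in NGP with JSK591 and 54.2% ± 0.21 in NGP with DMSO, against 29.3% ± 0.85 in CHLA-20 with JSK591 and 33.6% ± 1.5 in CHLA-20 with DMSO. RIOK1 gave 22.2% ± 0.35 in NGP with JSK591 and 26.4% ± 0.28 in NGP with DMSO, against 19.6% ± 0.071 in CHLA-20 with JSK591 and 19.2% ± 0.85 in CHLA-20 with DMSO (SD, n = 2 each). CLNS1A was thus the most abundant adaptor transcript in NGP and COPRS in CHLA-20, by either length. In NGP the places of COPRS and RIOK1 depended on the treatment, with COPRS above RIOK1 in both JSK591 libraries and below it in both DMSO libraries. The TPM ratio of RIOK1 to CLNS1A, the adaptors that compete for PRMT5, was 0.420 and 0.422 in NGP with JSK591, against 0.486 and 0.491 in NGP with DMSO. In CHLA-20 it was 0.686 and 0.656 with JSK591, against 0.572 and 0.574 with DMSO. JSK591 libraries were thus lower than DMSO libraries in NGP and higher in CHLA-20. With 2 libraries against 2, an exact permutation test of a single ratio cannot reach the threshold, so these ratios are given as values.

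**Figure D4:**
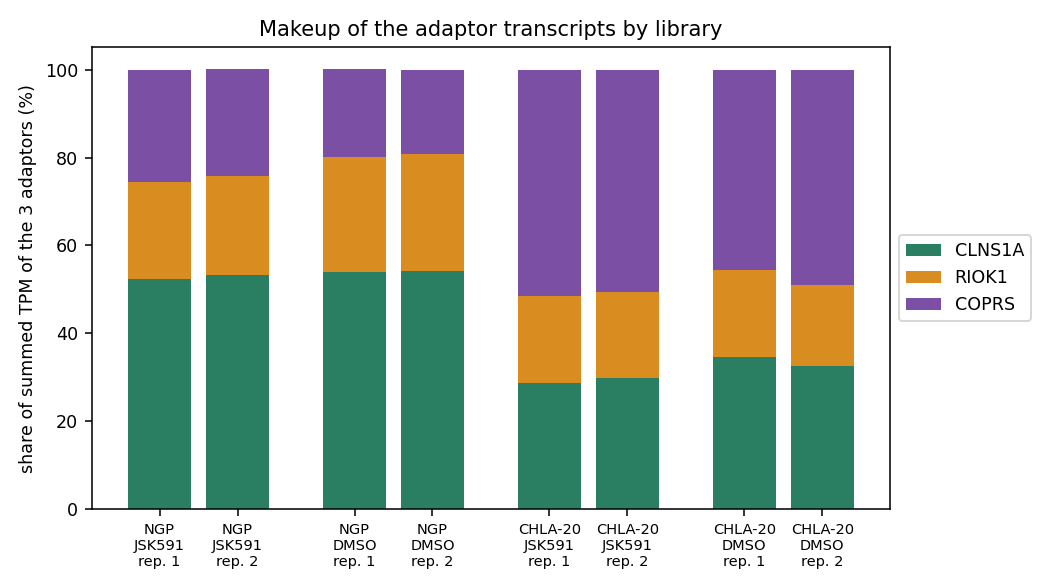
Share of the summed TPM of CLNS1A, RIOK1 and COPRS (%) in each of the 8 libraries, by union exon length. COPRS takes 19.1% to 25.6% in the NGP libraries and 45.6% to 51.6% in the CHLA-20 libraries.

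Across the lines, 5 of the 6 genes differed with DMSO, 3 higher in NGP (PRMT5, CLNS1A and RIOK1) and 2 lower (WDR77 and COPRS). With JSK591, 4 differed, 2 in each direction, where RIOK1 was no longer called. These counts stand beside 75.5% of all genes tested called with DMSO (36.6% higher and 38.9% lower) and 75.3% with JSK591 (37.3% higher and 38.0% lower), so most expressed genes differed between the lines. The median absolute log2 difference of the 6 was 0.48 with DMSO and 0.37 with JSK591, against 0.67 and 0.65 over all genes tested.

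Around the methylosome, 5 lists of genes named for their known roles were described by counts of calls and medians. The 5 Sm and Sm-like proteins that PRMT5 methylates before spliceosomal particles form (SNRPB, SNRPD1, SNRPD3, SNRPN and LSM4) held 0 higher and 1 lower in NGP, with a median log2 change of 0.00. At an unadjusted p under 0.05 edgeR had 1 higher, and DESeq2 called 0. In CHLA-20 they held 3 higher and 0 lower, with a median of 0.18, and 0 lower also at an unadjusted p and by DESeq2. Shares over all genes tested were 16.8% higher and 19.4% lower in NGP, and 16.9% higher and 22.4% lower in CHLA-20. SNRPD1 had 76.9 and 77.4 CPM in CHLA-20 with JSK591, against 63.4 and 62.7 CPM with DMSO, and it rose by 0.29 ± 0.05 on the log2 scale (adjusted p = 6.56e-07). In NGP SNRPD1 had 84.7 and 93.3 CPM with JSK591, against 90.8 and 87.3 CPM with DMSO, and the groups overlapped. SNRPD3, which shares 24.6% of its exonic bases with other genes, fell in NGP by 0.14 ± 0.04 (adjusted p = 0.00765), a call lost without NGP JSK591 replicate 1 (-0.11, adjusted p = 0.0949), and rose in CHLA-20 by 0.18 ± 0.04 (adjusted p = 0.000407). The effects on both differed between the lines, by -0.29 ± 0.07 for SNRPD1 (adjusted p = 0.000356) and -0.32 ± 0.06 for SNRPD3 (adjusted p = 2.82e-05). The 1 lower call in NGP was SNRPD3, and the count went to 2 without NGP DMSO replicate 1 or NGP JSK591 replicate 2 and with GC removed, and to 0 without NGP JSK591 replicate 1. With total count scaling or at least 10 counts in every library, 1 was higher there.

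The genes that act after the methylosome, the other Sm proteins and the SMN and Gemin proteins that load the Sm ring, gave 12 tested of 14. SMN1 and SMN2, near-identical copies between which reads are uncertain, had at most 0.388 CPM and were not tested. In NGP 2 were higher and 2 lower, with a median log2 change of -0.01. In CHLA-20 7 were higher and 1 lower, with a median of 0.12, beside 16.9% higher and 22.4% lower over all genes tested. That higher count was 2 with DESeq2, 3 with no filter on low counts, and 2 without CHLA-20 DMSO replicate 2 or CHLA-20 JSK591 replicate 2. In NGP 1 was lower with DESeq2 or without NGP DMSO replicate 2, and the shares over all genes there were 16.8% higher and 19.4% lower. DDX20, the helicase Gemin3, had a mean of 40.7 ± 1.3 CPM in NGP with JSK591, against 49.4 ± 0.87 CPM with DMSO. CHLA-20 had 34.9 ± 0.22 CPM with JSK591, against 28.2 ± 0.31 CPM with DMSO (SD, n = 2 each), and the groups overlapped in neither line. DDX20 thus fell in NGP (log2 -0.28 ± 0.05, adjusted p = 1.4e-05) and rose in CHLA-20 (0.31 ± 0.06, adjusted p = 1.21e-05), a difference of -0.59 ± 0.08 (adjusted p = 1.56e-08).

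Of 15 other proteins described as PRMT5 substrates, 4 were higher and 6 lower in NGP (median log2 change 0.01), and 6 were higher and 2 lower in CHLA-20 (median 0.07). Over all genes tested the calls were 36.2% in NGP and 39.4% in CHLA-20. Without NGP JSK591 replicate 2 the count of lower genes in NGP was 2, and without CHLA-20 DMSO replicate 2 or with GC removed that in CHLA-20 was 1. SRSF1, a splicing factor that shares 60.7% of its exonic bases with other genes, had 92.6 and 99.6 CPM in CHLA-20 with JSK591, against 56.1 and 59.9 CPM with DMSO, and rose by 0.73 ± 0.05 on the log2 scale (adjusted p = 7.24e-20). In NGP its change was 0.10 ± 0.05 (adjusted p = 0.135). FEN1, a flap endonuclease of DNA repair, rose in both, by 0.43 ± 0.05 in NGP and 0.62 ± 0.04 in CHLA-20. EGFR, a receptor tyrosine kinase, fell in both, by 0.39 ± 0.07 in NGP and 0.77 ± 0.05 in CHLA-20.

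Of 12 partners and regulators of PRMT5, 3 were higher and 3 lower in NGP (median 0.05), and 4 were higher and 4 lower in CHLA-20 (median 0.01), against the same 36.2% and 39.4% called over all genes. Without NGP JSK591 replicate 1 the higher genes in NGP were 1. In CHLA-20 the lower genes were 1 without CHLA-20 DMSO replicate 2 and 2 without CHLA-20 JSK591 replicate 1, and with GC removed 7 were higher and 2 lower. CCND1, the cyclin that with CDK4 phosphorylates WDR77, had 488 and 487 CPM in NGP with JSK591, against 301 and 306 CPM with DMSO. In CHLA-20 CCND1 had 1304 and 1290 CPM with JSK591, against 913 and 926 CPM with DMSO. It rose by 0.68 ± 0.04 in NGP (adjusted p = 7.1e-24) and by 0.50 ± 0.03 in CHLA-20 (adjusted p = 1.01e-18). PRMT1, the main enzyme of asymmetric arginine methylation, fell in both lines by 0.21 ± 0.04 (adjusted p = 6.67e-06 in NGP and 3.39e-06 in CHLA-20). TRIM21, another of the 12, fell further, by 0.37 in NGP and 0.76 in CHLA-20. In CHLA-20 TRIM21 had only 22 and 30 counts with JSK591, against 41 and 46 with DMSO, and its call there depended on single libraries. CHTOP, an RNA export factor found with PRMT1 and PRMT5, fell in NGP by 0.15 ± 0.04 (adjusted p = 0.00243) and rose in CHLA-20 by 0.20 ± 0.04 (adjusted p = 9.05e-05), a difference of -0.35 ± 0.06 (adjusted p = 3.42e-06).

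Among 9 genes that make methylthioadenosine or salvage it beside MTAP, 5 were higher and 0 lower in NGP (median log2 change 0.09), with 1 lower at an unadjusted p in edgeR and 0 called lower by DESeq2. In CHLA-20 5 were higher and 2 lower (median 0.13). Genes called higher were 16.8% of all tested in NGP and 16.9% in CHLA-20, and those called lower were 19.4% and 22.4%. With DESeq2 or with no filter the higher genes in NGP were 3, with DESeq2 size factors in edgeR 1 was lower there, and with DESeq2 1 was lower in CHLA-20. In NGP the higher genes were 2 without NGP DMSO replicate 2, and 3 without NGP DMSO replicate 1, either NGP JSK591 replicate or CHLA-20 DMSO replicate 2. There 1 was lower when NGP JSK591 replicate 2 or CHLA-20 DMSO replicate 2 was left out. In CHLA-20 the higher genes were 3 without CHLA-20 JSK591 replicate 1, and 1 was lower without it or without CHLA-20 DMSO replicate 1. MAT2A, which makes S-adenosylmethionine, the methyl donor of PRMT5, had 212 and 213 CPM in NGP with JSK591, against 136 and 127 CPM with DMSO. In CHLA-20 MAT2A had 338 and 335 CPM with JSK591, against 295 and 284 CPM with DMSO. It rose by 0.69 ± 0.04 on the log2 scale in NGP (adjusted p = 2.82e-22) and by 0.22 ± 0.04 in CHLA-20 (adjusted p = 2.52e-06), a difference of 0.48 ± 0.05 (adjusted p = 2.2e-10). AMD1, the decarboxylase that commits S-adenosylmethionine to polyamine synthesis, rose in both, by 0.20 ± 0.04 in NGP (adjusted p = 9.71e-05) and by 0.23 ± 0.04 in CHLA-20 (adjusted p = 6.06e-06).

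**Figure D5:**
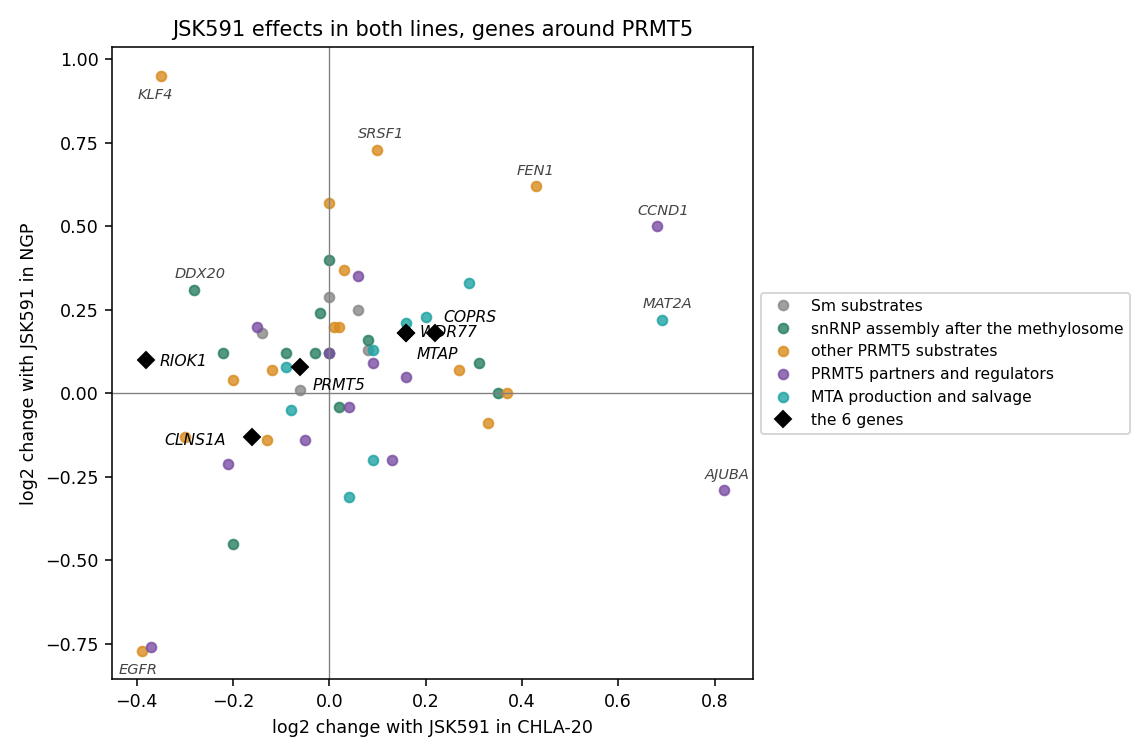
Log2 change with JSK591 in NGP (horizontal) and CHLA-20 (vertical) for the 6 genes (black diamonds) and the tested genes of the 5 lists (coloured points). The axis titles drawn in the figure name the lines the other way round. MAT2A, CCND1 and FEN1 lie above 0 in both lines and EGFR below 0 in both, while RIOK1 and DDX20 lie below 0 in NGP and above 0 in CHLA-20; KLF4 and AJUBA, at the edges, had few counts in at least 1 line.

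The genes most like each of the 6 were sought among 13952 tested protein-coding genes, by the Euclidean distance between log2 CPM values centred on each gene's mean over the 8 libraries. Nearest to PRMT5 were USP39 (distance 0.0541), ARMC1 (0.0601) and FBXO3 (0.0703), where the median gene lay at 1.15. WDR77 was nearest to IVD (0.0921), ANKRD40 (0.109) and MCCC2 (0.126), and CLNS1A to SNX27 (0.0824), CSNK2A1 (0.0856) and ADO (0.0895). RIOK1 had ALG12 (0.104), SEC24A (0.118) and RYBP (0.119) nearest, COPRS had PAFAH1B1 (0.151), KIAA1143 (0.164) and MOB2 (0.168), and MTAP had SAR1A (0.0887), MRS2 (0.0902) and PIK3R3 (0.0936). None of the 6 was among the 3 nearest genes of another. The distances rest on 8 libraries in 4 groups.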

How the data were processed

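Counts of messenger RNA were analysed in 8 libraries of the human neuroblastoma lines NGP and CHLA-20, with 2 libraries for each of JSK591 and DMSO in each line. The deposited values are raw read counts per gene in a separate file for each library, made by the authors with STAR and HTSeq on GRCh38 (hg38), per the submitters' processing notes, where DESeq2 is also named. Versions, annotation and strand setting are not given in the sources used here. Reads outside genes were 5.15% to 6.86% of counted reads, ambiguous ones 6.77% to 7.18% and multiply aligned ones 19.2% to 22.0%, and these stayed out of library sizes and tests. Symbols and coordinates came from GENCODE 29, which matched all 58721 identifiers.

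Genes were kept by filterByExpr, scaled by TMM and fitted in 1 quasi-likelihood model of the 4 groups with R 4.3.3, edgeR 4.0.16 and limma 3.58.1, with 4 residual degrees of freedom and a biological coefficient of variation of 2.76%. The Benjamini-Hochberg adjustment ran over 19395 tested genes, with a threshold of 0.05. SEs were derived from the F values. CPM use TMM-scaled libraries, and TPM were computed here from the deposited counts and GENCODE exon lengths. Intervals and floors cover counting error only where counts are given, and the spread between libraries where a fit is given. The tests were checked on simulated data. Promoter windows came from RefSeq (GRCh38.p14), and tables and figures were made with Python 3.11.15, pandas 2.3.3 and matplotlib 3.10.9.

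The 6 genes and the 5 lists were chosen with earlier results of these data known. Named genes were the 6, genes that overlap them, genes within 500 kb of MTAP with at least 10 counts in a library, up to 4 called genes per list by absolute change, and the 3 nearest genes by pattern. GEMIN8, GEMIN7 and others that this rule reaches are counted in their lists without values, and 2 list genes are counted but not reported here. Alternatives were other scalings (total count, DESeq2 size factors), DESeq2 1.42.0, no filter or at least 10 counts in every library, the replicate number as a block, the compared libraries alone, removal of a GC trend, the longest transcript as length, and each library left out in turn.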

Additional observations from a re-analysis of the deposited data

Results flagged for a closer look

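By the test of the difference itself (edgeR, NGP minus CHLA-20), the effect of JSK591 differed between the lines in 1 of the 6 genes. It also differed in 16 named genes of the lists around them. Named genes were picked from those called, up to 4 per list, so 16 is not a share. The lists held 0 higher and 2 lower of 5 Sm substrates and 2 higher and 4 lower of 12 assembly genes. They held 3 and 8 of 15 other substrates, 2 and 2 of 12 partners, and 3 and 0 of 9 methylthioadenosine genes. Some of these counts moved under alternatives. Over all genes tested, 27.7% were called in this comparison (15.2% higher and 12.5% lower). RIOK1 was the 1 of the 6, with a log2 difference of -0.48. In the Sm proteins and the genes that assemble them, the difference was -0.29 for SNRPD1, -0.32 for SNRPD3, -0.34 for GEMIN2, -0.59 for DDX20, 0.22 for GEMIN4 and 0.35 for GEMIN6. Among other substrates it was 0.38 for EGFR, -0.63 for SRSF1 and 0.42 for TDP1. Partners and regulators gave -0.35 for CHTOP, -0.29 for ERH, 0.33 for STUB1 and 0.19 for CCND1. Genes of methylthioadenosine production and salvage gave 0.48 for MAT2A, 0.35 for MRI1 and 0.29 for APIP. The calls of the other 10 genes held under all alternatives run, and those of GEMIN2, GEMIN4, GEMIN6, STUB1, CCND1, MRI1 and APIP did not.

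With DESeq2 the calls of GEMIN2 (-0.36, adjusted p = 0.0839), GEMIN4 (0.20, 0.109), GEMIN6 (0.33, 0.119), STUB1 (0.31, 0.145), MRI1 (0.33, 0.135) and APIP (0.26, 0.133) were lost. Without a filter on low counts those of GEMIN2 (-0.34, adjusted p = 0.0564), GEMIN4 (0.22, 0.0665), STUB1 (0.33, 0.0912) and MRI1 (0.35, 0.0644) were lost, and with GC removed those of GEMIN4 (0.11, 0.239) and STUB1 (0.04, 0.843). Leaving out CHLA-20 DMSO replicate 1 lost GEMIN2 (-0.29, adjusted p = 0.0834) and APIP (0.25, 0.0751). CHLA-20 DMSO replicate 2 did so for GEMIN4 (0.18, adjusted p = 0.115), STUB1 (0.15, 0.391), CCND1 (0.13, 0.0803) and MRI1 (0.26, 0.12). CHLA-20 JSK591 replicate 1 did so for GEMIN6 (0.31, adjusted p = 0.054), STUB1 (0.31, 0.0534) and APIP (0.27, 0.0533), and CHLA-20 JSK591 replicate 2 for GEMIN2 (-0.30, 0.0884), GEMIN4 (0.19, 0.0997) and MRI1 (0.32, 0.0604). Without NGP DMSO replicate 1 the losses were GEMIN4 (0.12, adjusted p = 0.347), STUB1 (0.29, 0.0647), CCND1 (0.12, 0.101), MRI1 (0.20, 0.229) and APIP (0.21, 0.125), and without NGP DMSO replicate 2 GEMIN6 (0.27, 0.0951) and STUB1 (0.27, 0.0816). Without NGP JSK591 replicate 1 they were GEMIN4 (0.17, adjusted p = 0.164), GEMIN6 (0.30, 0.067), CCND1 (0.14, 0.0558), MRI1 (0.26, 0.136) and APIP (0.26, 0.0636), and without NGP JSK591 replicate 2 STUB1 (0.30, 0.058) and APIP (0.27, 0.0519).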

How the results depend on the processing

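Among the 6 genes, the falls of RIOK1 and CLNS1A in NGP, the rise of MTAP in CHLA-20 and the difference of RIOK1 between the lines kept direction and call under all alternatives run. Replicate numbers did not pair the libraries (correlations of deviations -0.0269 to 0.0122, with only 2 numbers). The block lost WDR77 in CHLA-20, at 0.18 over all libraries (adjusted p = 0.0501) and 0.18 within each line (0.0533), and no other call of the 6. Without a filter WDR77 there had 0.19 (0.0889). DESeq2 lost WDR77 (0.19, adjusted p = 0.205) and COPRS (0.19, 0.0540) in CHLA-20 and COPRS (0.21, 0.0570) and MTAP (0.14, 0.0814) in NGP, which left 1 of the 6 higher in CHLA-20 and 0 in NGP (2 in NGP at an unadjusted p, and 2 called by edgeR). It called 1817 genes higher in NGP and 1641 higher in the difference. RIOK1 in CHLA-20 was called in the compared libraries alone (0.13, 0.0394). With GC removed, PRMT5 joined RIOK1 in the difference (-0.19, 0.0218; 2 of the 6 lower), and the differences of CLNS1A (0.05), COPRS (-0.06) and MTAP (0.06), never called, changed sign. MTAP between the lines, never called, changed sign with DMSO under DESeq2 size factors (0.01), total count (0.03), DESeq2 (0.01), the block within lines (0.02) and the compared libraries alone (0.01), and with JSK591 under total count (0.01). The causes were not tested.

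With each library left out, log2 changes in CHLA-20 ran from 0.15 to 0.21 for WDR77, -0.13 to -0.10 for CLNS1A, 0.07 to 0.13 for RIOK1 and 0.10 to 0.29 for COPRS, with 1 to 4 of the 6 higher and 0 to 1 lower. In NGP they ran from 0.16 to 0.24 for COPRS and 0.09 to 0.19 for MTAP, with 0 to 2 higher. Differences ran from -0.12 to 0.01 for WDR77 and -0.09 to 0.12 for COPRS, and MTAP between the lines with DMSO from -0.02 to 0.08.

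By longest transcript, TPM in NGP with JSK591, NGP with DMSO, CHLA-20 with JSK591 and CHLA-20 with DMSO were 49.4, 52.0, 37.6 and 36.1 for PRMT5, 11.5, 10.5, 14.7 and 13.1 for WDR77, 117, 133, 67.4 and 74.4 for CLNS1A, 48.7, 42.1, 103 and 92.2 for COPRS, and 16.6, 15.1, 16.1 and 14.4 for MTAP. RIOK1 had 37.1 in NGP with JSK591, 48.7 in NGP with DMSO and 32.0 in CHLA-20 with DMSO. Of 2698 values of the lists and of genes near the 6 under an alternative, 2537 kept direction and call or count, 95 lost a call and 66 counts moved.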
